A study of Arabidopsis thaliana with 24 samples.

Results

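The subjective morning of Col seedlings was compared with the early subjective night of the same genotype, to learn which genes differed most between these phases when the plants had received no day or night signal for several days. The morning side was made of the 4 Col arrays harvested at circadian times 0 and 4 h (CT0 and CT4, counted from subjective dawn), and the night side of the 4 Col arrays harvested at CT12 and CT16, which together are 8 of the 24 arrays of the series. Col is the Columbia wild type, and the other genotype, *rve8-1*, carries a mutation of the clock gene *RVE8*. Its arrays entered the estimate of the error of every test, and its levels are given only where the Col difference is set against it. All plants were whole seedlings grown on medium with sucrose, entrained in 12 h of light and 12 h of dark for 7 days, and then kept in constant white light with no other treatment. About 50 plants were pooled for each harvest, and a harvest was taken every 4 h from 72 to 116 h in constant light, which gave each time of day 1 array on day 4 and 1 on day 5 in constant light. Per array, the morning values below are given in the order 72, 76, 96 and 100 h (CT0 and CT4 on day 4, then CT0 and CT4 on day 5) and the night values in the order 84, 88, 108 and 112 h (CT12 and CT16 on day 4, then on day 5).

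The arrays were AGRONOMICS1 tiling arrays, and each value is a log2 expression level of 1 gene on 1 array, so that a difference of 1 is a factor of 2. Of 30237 genes, 18859 were above 4.5 in at least 4 of the 12 Col arrays and were tested. The array of the second day served as the replicate of the first, and no label says that the days were separate sowings, so the p values measure only the spread between these harvests. The 25th percentile of all 30237 values lay between 3.91 and 4.17 on the morning arrays and between 3.77 and 3.88 on the night arrays, and the median over the tested genes lay between 6.03 and 6.13 on the morning arrays and between 6.10 and 6.18 on the night arrays. The calls after rescaling the arrays are given below, and the cause of these shifts was not tested. Over the tested genes, a morning and a night array lay at a mean Euclidean distance of 59.2, against 50.1 for a CT0 and a CT4 array, 42.0 for a CT12 and a CT16 array, and 39.3 for arrays of the same time of day taken 24 h apart. Shoot transcripts were abundant, with *RBCS1A*, the small subunit of Rubisco, between 13.50 and 13.80 over the 12 Col arrays and the antenna gene *LHCB3* between 12.10 and 13.06. The root gene *PYK10* lay between 11.51 and 11.97, and *EXPA7*, *PRP3*, *MRN1* and *SCR* between 4.07 and 7.13, whereas the floral genes *AP3*, *PI* and *AG* and the seed storage gene *SESA1* did not pass the expression filter. The seed storage gene *CRA1* did pass it, at 4.75 to 6.83. Because RNA came from whole seedlings, fewer cells of a type and less RNA per cell cannot be told apart.

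The plant clock is a network of repressors and activators that are expressed in turn through the day. *CCA1* and *LHY*, related MYB factors, appear around dawn and repress evening genes such as *TOC1*. The *PRR* genes follow one another from morning to evening and repress *CCA1* and *LHY* in turn, and the evening complex of *ELF3*, *ELF4* and *LUX* acts at dusk and early night. *RVE8* and related MYB factors activate evening genes together with the LNK coactivators. Through these factors the clock times photosynthesis, growth, starch turnover, cold responses and flowering.

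Of the tested genes, 2735 (14.5%) differed between the sides at an adjusted p under 0.05 (limma, Benjamini-Hochberg over all tested genes). The level was higher in the morning for 909 of them (4.82%) and lower for 1826 (9.68%). Large differences ran the other way, since 136 of the genes higher in the morning and 85 of those lower in the morning differed by at least 1 log2 unit, and 18 and 5 by at least 2. The median difference was 0.59 in the genes higher in the morning, -0.44 in those lower in the morning, and -0.04 over all tested genes. The 4 morning arrays all lay above the 4 night arrays in 1671 of the tested genes (8.86%) and all below them in 2733 (14.5%), and this held for 671 and 1469 of the genes called in that direction. With the 12 Col arrays alone in the fit, 4376 genes were called, 1746 higher and 2630 lower. The split of the calls depended on how the arrays were scaled. When each array was centred on its median over the tested genes, 1342 genes were higher and 1121 lower in the morning. That is a share of 54.5% higher in place of 33.2%. Quantile normalization left the split nearer to the main one, with 1009 genes higher and 1710 lower, a share of 37.1% higher. With the tested genes divided by level into 5 equal bins, the median difference was 0.07 in the lowest bin, -0.08, -0.10 and -0.07 in the next ones, and 0.02 in the highest. The count of calls fell to 1702 without the 72 h array, 1573 without 88 h, 1552 without 100 h and 1473 without 108 h, and that of genes higher in the morning also moved by more than 1.5 times without the 84 h array (589) and the 96 h array (583). Genes lower in the morning also moved by that factor without the 112 h array (1210).

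The genes with the largest positive differences included *LNK3*, *LNK4* and *LNK2*, whose products are partners of RVE8. *LNK3* (AT3G12320) stood at 9.0, 8.48, 8.96 and 8.06 on the morning arrays and at 4.15, 4.55, 4.82 and 6.05 on the night arrays, and it was 3.73 higher in the morning (standard error 0.26, adjusted p = 5.31e-07, limma), a factor of 13.3. *LNK4* (AT5G06980) stood at 9.07, 8.84, 9.16 and 8.76 on the morning arrays, against 5.01, 4.72, 5.20 and 6.05 on the night arrays, a difference of 3.71 (standard error 0.24, adjusted p = 3.98e-07). In both genes the sides were far apart, and the 112 h array was the highest of the night arrays. *LNK2* (AT3G54500) was 2.88 higher in the morning (standard error 0.21), and its night arrays were again highest at 112 h, at 6.05.

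*CIPK20* (AT5G45820), a protein kinase that acts with calcineurin B-like calcium sensors, had 6.96, 7.73, 7.39 and 7.21 on the morning arrays, against 3.91, 3.04, 4.07 and 4.05 on the night arrays, and was 3.55 higher in the morning (standard error 0.24, adjusted p = 4.79e-07, limma). Its night levels were all below 4.5, near the 25th percentile of the arrays, so that its factor of 11.7 rests on night values at the low end of the scale. *BBX28* (AT4G27310), a B-box protein of the light signalling family, had the smallest SD on both sides among the 10 genes with the largest positive differences, with 7.65, 8.0, 7.90 and 7.84 in the morning and 4.45, 4.52, 4.77 and 4.54 at night, and was 3.28 higher in the morning (standard error 0.17, adjusted p = 4.96e-08). AT3G55240, a locus with no gene name in the annotation, had 7.10, 8.39, 7.61 and 7.73 on the morning arrays and 6.49, 3.05, 5.98 and 2.65 on the night arrays. In this gene the CT12 and CT16 arrays were far apart from each other, yet all 4 night arrays lay below the morning ones. Its CT16 values lay below 4.5, at the low end of the scale. *MYBL2* (AT1G71030), a MYB repressor of flavonoid synthesis, was 2.27 higher in the morning (standard error 0.21).

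Among the genes with the largest negative differences, *JMJ30* (AT3G20810), a jumonji-domain protein of the clock, had 5.10, 5.07, 4.97 and 5.5 on the morning arrays and 8.12, 7.37, 7.96 and 7.07 on the night arrays, and was lower in the morning (difference -2.47, standard error 0.15, adjusted p = 1.65e-07, limma). *BBX7* (AT3G07650), a B-box protein of the CONSTANS-like family, had 4.29, 5.08, 4.94 and 5.62 on the morning arrays, against 7.56, 7.10, 7.52 and 7.25 on the night arrays, and differed by -2.38 (standard error 0.18). *BT2* (AT3G48360), a protein with BTB and TAZ domains, had 5.88, 7.00, 6.48 and 7.99 in the morning and 9.68, 8.71, 9.49 and 8.92 at night, so that its CT4 arrays were the highest of the morning and the CT16 arrays the lowest of the night, with no overlap. *BAM3* (AT4G17090), the main beta-amylase of leaf starch breakdown, differed by -1.83 (standard error 0.14) with 8.06, 7.89, 8.07 and 7.87 on the morning arrays and 9.58, 10.09, 9.71 and 9.86 on the night arrays. *HPL1* (AT4G15440), a hydroperoxide lyase of the oxylipin pathway, differed by -1.69, AT1G51090 by -1.79, AT2G23910 by -1.66 and AT2G28085, listed as *SAUR42*, by -1.60. The night side of AT2G28085 was 4.97 to 5.83, and its morning side of 3.67 to 3.99 lay below 4.5 on every array.

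**Figure D1:**
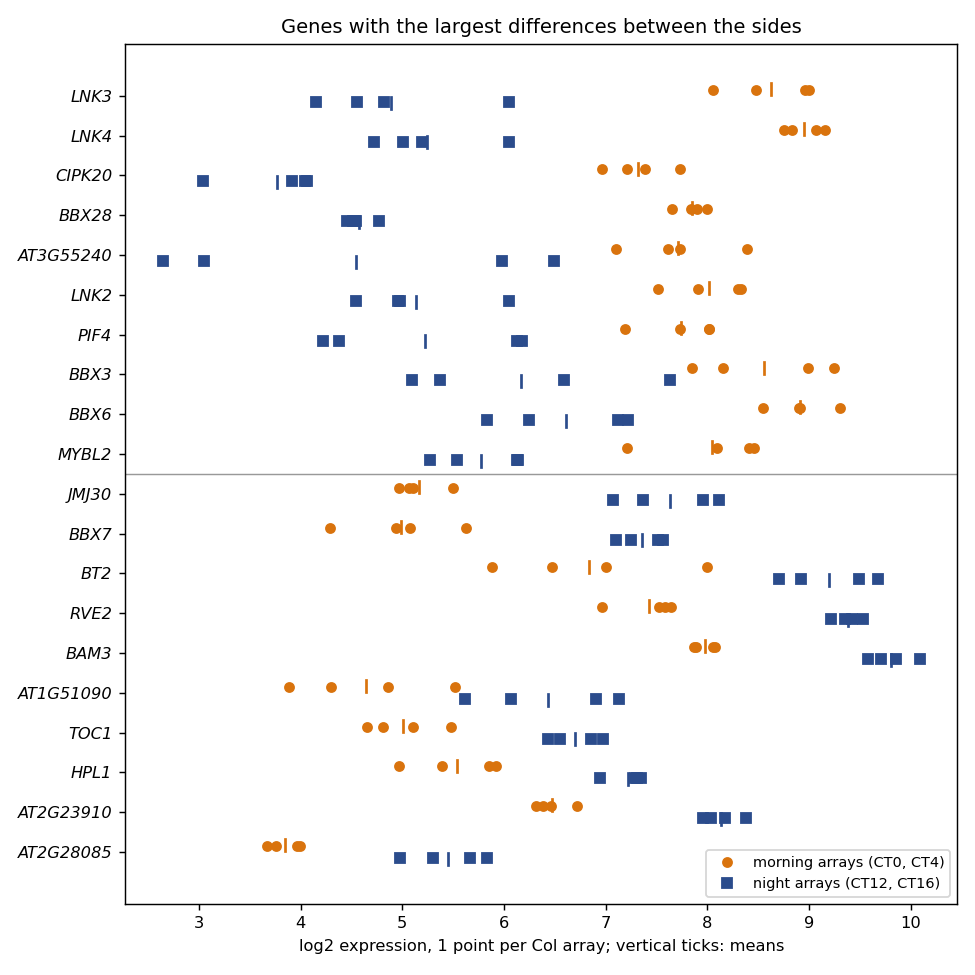
Log2 expression on each of the 8 Col arrays for the 10 genes with the largest positive and the 10 with the largest negative difference, with morning arrays as orange circles above night arrays as blue squares and a vertical tick at each mean. These genes were chosen for sides that do not overlap, and LNK3 reached from 8.06 to 9.0 on the morning arrays and from 4.15 to 6.05 on the night arrays.

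Of 14 genes listed as morning clock genes, all of which were tested, 12 were higher in the morning and 1 was lower. These counts stand beside 4.82% higher and 9.68% lower over all tested genes. The median difference of the list was 1.63 against -0.04 over all tested genes. *CCA1* (AT2G46830) had 7.88, 6.75, 7.5 and 6.31 on the morning arrays and 4.22, 5.28, 4.73 and 6.20 on the night arrays, a difference of 2.00 (standard error 0.21, adjusted p = 1.26e-05, limma). The sides did not overlap, but the 112 h array of the night lay only just below the 100 h array of the morning. *LHY* (AT1G01060) did overlap, with 8.22, 6.86, 7.92 and 6.28 on the morning arrays, against 4.35, 6.15, 5.33 and 6.97 on the night arrays, and differed by 1.62 (standard error 0.26, adjusted p = 0.000601). In both genes CT0 was the high point of the morning side and CT12 the low point of the night side. The other LNK gene, *LNK1*, was 2.19 higher in the morning, at 7.21 ± 0.18 in the morning and 5.02 ± 0.40 at night (SD, n = 4 arrays each).

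The repressors *PRR7* and *PRR9* were also higher in the morning. *PRR7* (AT5G02810) had 4.98, 6.32, 5.76 and 6.11 on the morning arrays and 4.37, 3.43, 4.27 and 3.54 on the night arrays, a difference of 1.89 (standard error 0.14, adjusted p = 7.25e-07, limma). Here CT4 was the high point of the morning and CT16 the low point of the night, the reverse of *CCA1* on both sides. *PRR9* had 5.56 ± 0.49 in the morning and 3.92 ± 0.29 at night (SD, n = 4 each), a difference of 1.64, and its night arrays were all below 4.5.

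The REVEILLE genes, relatives of *RVE8*, did not move alike. *RVE8* (AT3G09600) itself was higher by 1.01 (standard error 0.15, adjusted p = 0.000456, limma), with 7.37, 6.28, 7.36 and 5.94 on the morning arrays, against 4.45, 6.41, 5.36 and 6.71 on the night arrays, and the sides overlapped because both CT16 arrays were above the 2 CT4 arrays. *RVE1*, which links the clock with auxin, was higher by 0.81 and *RVE7* by 1.34. *RVE4* was higher by 0.33 (adjusted p = 0.0395), a call that was lost when any 1 of the 8 arrays was left out (adjusted p up to 0.127). *RVE2* (AT5G37260) went the other way, at 7.64, 6.96, 7.58 and 7.52 on the morning arrays and 9.35, 9.42, 9.22 and 9.53 on the night arrays, a difference of -1.95 (standard error 0.15, adjusted p = 7.25e-07). *ASG4*, also of this family, was not called, with 5.94, 4.2, 6.04 and 4.45 on the morning arrays and 3.24, 5.25, 4.12 and 6.21 on the night arrays. Its level at CT4 lay below that at CT16 and its level at CT0 above that at CT12, and the difference of the sides was 0.45 (standard error 0.24, adjusted p = 0.214).

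Of 19 genes listed as evening clock genes, 10 were lower in the morning, 1 was higher and 8 were not called. Their median difference was -0.48, and over all tested genes 9.68% were lower and 4.82% higher. *TOC1* (AT5G61380), the evening repressor of *CCA1*, had 4.65, 5.10, 4.81 and 5.48 on the morning arrays and 6.97, 6.55, 6.86 and 6.43 on the night arrays, a difference of -1.69 (standard error 0.14, adjusted p = 1.27e-06, limma). *PRR3*, a PRR protein that stabilises TOC1, was lower by 1.59 on the log2 scale, at 4.46 ± 0.77 in the morning and 6.05 ± 0.45 at night (SD, n = 4 each). In both genes the sides were apart, and CT4 was above CT0 on each day.

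The evening complex was lower in the morning in all 3 members. *ELF3* (AT2G25930) had 4.59, 5.08, 4.98 and 4.99 on the morning arrays and 5.96, 6.10, 5.97 and 6.08 on the night arrays, a difference of -1.12 (standard error 0.12, adjusted p = 1.50e-05, limma). *LUX*, the DNA-binding member, had 4.77, 5.81, 5.02 and 6.25 on the morning arrays, against 6.73, 6.08, 6.60 and 6.24 on the night arrays, and differed by -0.95 (adjusted p = 8.85e-05) with the 100 h array inside the range of the night arrays. *ELF4* differed by -0.62 (adjusted p = 0.0325), and this call was lost without any 1 of the arrays of 72, 76, 84, 88, 108 or 112 h (adjusted p up to 0.116), after median centring (0.0655), without the filter (0.0566) and without moderation (0.0571). *BOA*, a close relative of *LUX*, was lower as well, with a difference of -1.40.

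*FKF1*, a blue-light receptor of the flowering pathway, differed by -1.08, *COR27*, a cold-regulated repressor of evening clock genes, by -1.65, and *GRP7*, an RNA-binding protein under clock control, by -0.48, and the sides overlapped in all of them. *CHE*, a TCP factor that represses *CCA1*, was the listed gene that was higher in the morning, at 9.06 ± 0.33 in the morning and 8.39 ± 0.11 at night (SD, n = 4 each; difference 0.66, adjusted p = 0.00135, limma). *GI*, which stabilises the ZTL photoreceptor, and the repressor *PRR5* were not called. *GI* (AT1G22770) had 4.17, 5.06, 4.24 and 5.32 on the morning arrays and 4.83, 4.29, 4.56 and 4.06 on the night arrays (difference 0.26, adjusted p = 0.173). The highest mean of *GI*, *PRR5* and *GRP8* fell at CT8, between the sides, at 5.70 for *GI*. *TIC*, *LKP2*, *ZTL*, *LWD1* and *LWD2* had differences from -0.22 to 0.15 and were not called.

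The calls of *RVE4*, *RVE1*, *RVE8*, *LHY*, *LUX*, *FKF1*, *COR27* and *GRP7* were absent when the 4 arrays of a side were treated as replicates of each other (adjusted p from 0.0714 to 0.268, limma). That alternative counts the change from CT0 to CT4 and from CT12 to CT16 as error. When only genes above 4.5 on all 12 Col arrays were tested, 5 morning clock genes were called higher and 6 evening clock genes lower, since many clock genes fell below this level for part of the day.

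**Figure D2:**
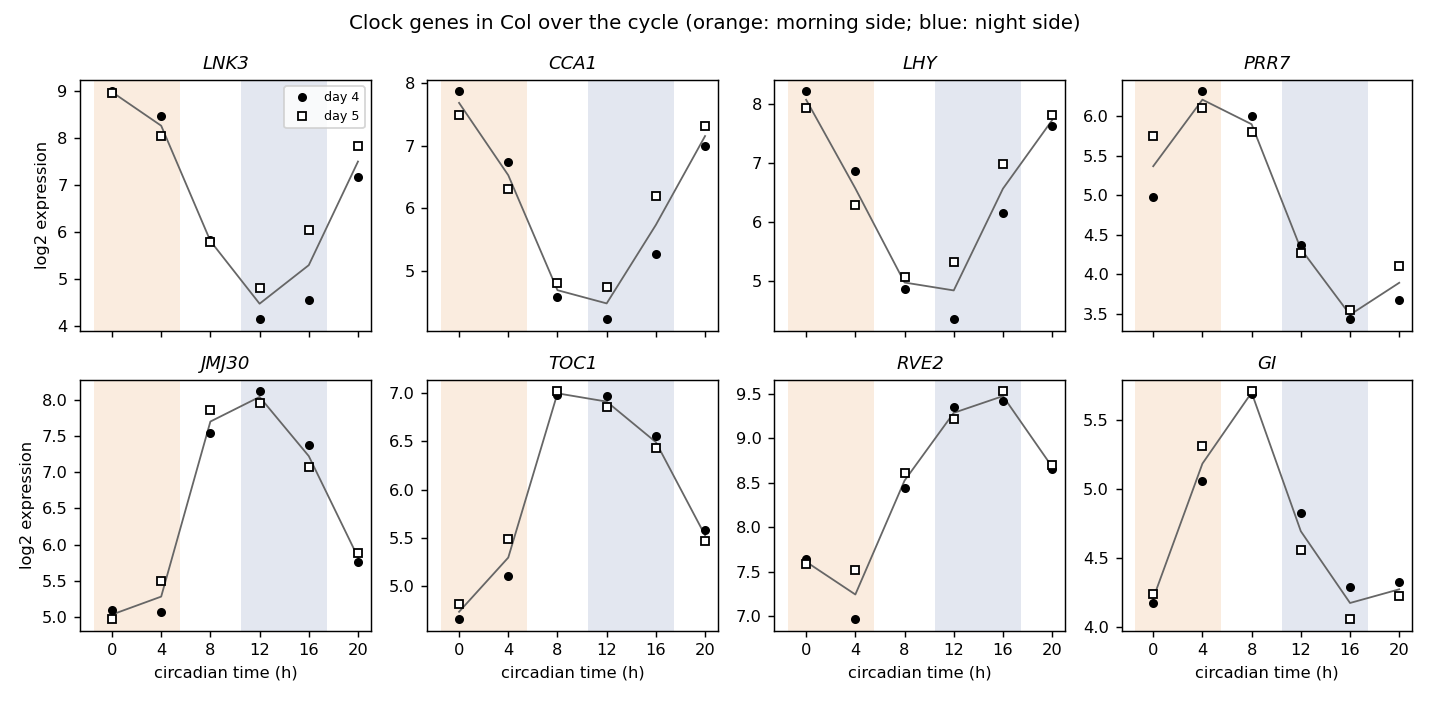
Log2 expression of 8 clock genes in Col by circadian time in h, with day 4 as filled circles, day 5 as open squares and a line through the means, and the morning side shaded orange and the night side blue. The means of LNK3, CCA1 and LHY were higher at CT0 than at CT4 and higher at CT16 than at CT12, and GI had its highest mean, 5.70, between the sides.

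The sides pool 2 times of day each, and some genes changed within a side. Between CT4 and CT0, 184 genes (0.976%) differed at an adjusted p under 0.05 (limma), 111 of them higher at CT4, and between CT16 and CT12, 75 genes (0.398%), 54 of them higher at CT16. Of these, 103 and 40 were also called between the sides. Without the 72 h array 0 genes passed for CT4 against CT0, with 1321 at an unadjusted p under 0.05, and without the 100 h array 2 passed, while for CT16 against CT12 the count was 10 without the 84 h array, 39 without 88 h and 9 without 112 h. In each such fit 1 time of day had a single array. Among evening clock genes 7 were higher at CT4 than at CT0, and *FKF1* was lower at CT16 than at CT12 (-0.96, adjusted p = 0.0215), a call lost without any 1 of the 4 night arrays (adjusted p up to 0.344). *COR27* was 2.28 higher at CT4 than at CT0 (standard error 0.40, adjusted p = 0.0102) and *PRR5* 1.3 higher (adjusted p = 0.00414), both without a call when the 72 h or the 100 h array was left out.

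On the night side, AT3G55240 was lower at CT16 than at CT12 by a difference of -3.39, at 2.85 at CT16 and 6.24 at CT12 (means of 2 arrays; adjusted p = 0.000997, limma), a call that was made in each of the fits without 1 array. Both CT16 arrays of AT3G55240, at 3.05 and 2.65, lay below the 25th percentile of the night arrays (3.77 to 3.88). The size of this difference thus rests on values at the low end of the scale. *RVE8* was higher at CT16 than at CT12 by 1.66 (adjusted p = 0.00196) and lower at CT4 than at CT0, with a difference of -1.25 (adjusted p = 0.0101). The first call was lost without the 112 h array and the second without the 72 h or the 100 h array. *AMY3*, an alpha-amylase of the chloroplast, was 0.80 higher at CT4 than at CT0 (adjusted p = 0.00518, lost without the 72 h or the 100 h array) and differed by -0.97 between CT16 and CT12 (adjusted p = 0.000997), and its difference between the sides was 0.05. *DFR*, an enzyme of anthocyanin synthesis, had 10.12 and 9.50 at CT0 and 7.86 and 7.26 at CT4, so that its sides were nearly equal in the mean, at 8.68 ± 1.34 in the morning and 8.75 ± 0.55 at night (SD, n = 4 each). Its CT4 arrays were the lowest of the 8.

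The PIF factors are basic helix-loop-helix proteins that promote elongation, and many of them are destroyed in the light through phytochromes. Of the 8 tested genes on the list of PIF and growth genes, 6 were higher in the morning and 0 lower. Their median difference was 0.705, and over all tested genes 4.82% were higher and 9.68% lower. The 6 called genes were 4 of the 5 PIF genes together with *HFR1* and *ATHB2*, a homeodomain factor of shade responses. *PIF3* and the auxin response gene *IAA29* were not called. *PIF4* (AT2G43010) had 7.19, 8.01, 7.73 and 8.01 on the morning arrays and 6.12, 4.38, 6.18 and 4.22 on the night arrays, a difference of 2.51 (standard error 0.20, adjusted p = 1.19e-06, limma). *PIF5* (AT3G59060) had 8.04, 8.09, 8.26 and 7.79 on the morning arrays, against 5.82, 5.54, 5.90 and 5.87 on the night arrays, a difference of 2.26 (standard error 0.14, adjusted p = 2.21e-07). In both genes all morning arrays lay above all night arrays. *HFR1*, an inhibitor of PIF proteins, was higher by 0.72 (adjusted p = 0.00859), a call absent with the 4 arrays of a side taken as replicates (adjusted p = 0.0878), and *PIF3* had a difference of -0.000943.

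The list of B-box genes, zinc-finger proteins of light signalling and flowering, had 12 tested genes. Of these, 6 were higher in the morning and 1, *BBX7*, was lower, beside 4.82% and 9.68% over all tested genes. Over all 26 tested genes with a *BBX* symbol, looked at after the values were seen, 11 were higher and 4 lower, the others of these 4 being *BBX8* (-1.55), *BBX13* (-0.74) and *BBX14* (-0.31). *BBX3* (AT3G02380) had 9.24, 8.16, 8.99 and 7.85 on the morning arrays and 5.09, 6.59, 5.37 and 7.64 on the night arrays, a difference of 2.39 (standard error 0.19, adjusted p = 1.03e-06, limma). *BBX6* (AT5G57660) had 8.54, 9.31, 8.90 and 8.91 on the morning arrays, against 7.13, 5.83, 7.22 and 6.25 on the night arrays, and was 2.31 higher. *BBX24* (AT1G06040), a repressor of seedling light responses, was 1.65 higher with 10.09 ± 0.08 in the morning and 8.45 ± 0.18 at night (SD, n = 4 each). At night *BBX3* was higher at CT16 than at CT12 on both days, and *BBX6* was higher at CT12 than at CT16. Of the photoreceptor genes, 0 of 10 were higher and 2 lower, which is near the 14.5% called over all tested genes. They were the UV-B receptor *UVR8* (difference -0.37, adjusted p = 0.00420) and *PHYC* (-0.32, adjusted p = 0.0260). The call of *PHYC* was lost without the array of 72, 88, 100, 108 or 112 h and after median centring (adjusted p = 0.0640, limma), and that of *UVR8* with the 4 arrays of a side as replicates (0.0589). *CRY1* (difference 0.28, adjusted p = 0.0655) was called higher after quantile normalization (0.0400) and median centring (0.0191). It was also called higher with the Col arrays alone (0.0331) and with the 4 arrays of a side as replicates (0.0477). *PHOT2* (-0.34, adjusted p = 0.0871) was called lower with the Col arrays alone (0.0452).

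In the flowering list, the CDF factors, which repress *CO* and *FT* early in the day, were the called genes. Of its 8 tested genes, 3 were higher in the morning and 0 lower, beside 4.82% and 9.68% over all tested genes. *CDF3* (AT3G47500) had 7.60, 7.68, 7.66 and 7.37 on the morning arrays and 5.84, 5.44, 5.96 and 5.90 on the night arrays, a difference of 1.79 (standard error 0.13, adjusted p = 6.61e-07, limma). *CDF1* was 1.31 higher and *CDF2* 0.78 higher. *CO*, the day-length sensor, had a difference of -0.42 (adjusted p = 0.0864, limma) and *FT*, the mobile flowering signal, of 0.35 (adjusted p = 0.116). *CO* was called lower after quantile normalization (-0.61, adjusted p = 0.0158) and with the Col arrays alone in the fit (adjusted p = 0.0424). It was also called lower without the 88 h array, with a difference of -0.60. Its levels were at the low end of the scale, at 3.92 to 4.33 on the morning arrays and 4.21 to 4.91 on the night arrays.

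Genes of the light-harvesting antenna, whose proteins bind chlorophyll around the photosystems, were higher in the morning in 11 of 16 cases and lower in 1. Another 5 of the 21 listed genes were not tested because the data held no values for them, and 0 were measured below the filter. The median difference was 0.41, and 4.82% of all tested genes were higher. The call of *LHCB5* (difference 0.22, adjusted p = 0.0448, limma) was lost without any 1 of the 8 arrays. After quantile normalization its difference was 0.03. *LHCA2* (0.23, adjusted p = 0.0276) kept its call only without the 112 h array. *LHCB2.3* (AT3G27690) had 12.49, 12.43, 12.51 and 12.25 on the morning arrays and 10.36, 10.78, 10.29 and 11.31 on the night arrays, a difference of 1.74 (standard error 0.12, adjusted p = 5.31e-07, limma). *LHCB2.1* was 1.25 higher and *LHCB1.4* 1.17 higher, at 12.61 ± 0.09 in the morning and 11.44 ± 0.30 at night for *LHCB1.4* (SD, n = 4 each). *LHCA1*, of the photosystem I antenna, was 0.76 higher with 13.09 ± 0.03 in the morning and 12.32 ± 0.14 at night (SD, n = 4 each). *LHCB4.3* (AT2G40100) was the exception, with 7.73, 6.85, 7.64 and 6.67 on the morning arrays, against 7.80, 8.52, 8.0 and 8.60 on the night arrays, and differed by -1.01 (standard error 0.14, adjusted p = 0.000175).

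Of 24 genes of chlorophyll synthesis, 9 were higher in the morning and 1 was lower, beside 4.82% and 9.68% over all tested genes. Their median difference was 0.12. *PORA* (AT5G54190), a light-dependent protochlorophyllide reductase, was 1.62 higher (standard error 0.28, adjusted p = 0.00115, limma), with 4.94, 6.84, 6.27 and 7.59 on the morning arrays and 4.66, 4.72, 4.94 and 4.84 on the night arrays. The 72 h array lay barely above the night arrays and CT4 was above CT0 on each day. *CAO*, which makes chlorophyll b, was 1.28 higher at 8.17 ± 0.26 in the morning and 6.89 ± 0.38 at night, and *CHLH*, the large subunit of magnesium chelatase, was 0.89 higher (SD, n = 4 each). *FC2*, a ferrochelatase at the haem branch, was lower, with a difference of -0.70 (standard error 0.07, adjusted p = 1.57e-05), at 7.60, 7.25, 7.53 and 7.32 on the morning arrays and 8.15, 8.15, 8.05 and 8.14 on the night arrays. The count of 9 fell to 5 without the array of 88, 96 or 108 h, and that of genes lower in the morning became 2 without the 76 h array.

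Starch is made in the chloroplast by day and degraded by night. The genes of breakdown were lower in the morning in 11 of 19 cases and higher in 0, with a median difference of -0.49. Over all tested genes 9.68% were lower and 4.82% higher. Among the 19 genes of breakdown, called or not, the highest Col mean fell at CT8, between the sides, for 10. It fell at CT12 for 3, at CT16 for 4 and at CT20 for 2, beside 20.8% at CT8 over all tested genes. Lower levels in the morning thus do not place the peak of this list in the night. *BAM3*, described among the largest differences, also led this list. *BAM6* had 3.84, 3.48, 4.22 and 4.07 on the morning arrays and 5.03, 5.28, 5.31 and 5.81 on the night arrays (difference -1.45, standard error 0.21, adjusted p = 0.000259, limma), with a morning side below 4.5. *PHS2*, the cytosolic glucan phosphorylase, had 6.21, 7.47, 6.35 and 7.39 on the morning arrays, against 8.26, 7.65, 8.21 and 7.26 on the night arrays (difference -0.99), so that the 112 h array lay below the CT4 arrays. With the 4 arrays of a side taken as replicates, 5 genes of the list were called. Of 14 genes of starch synthesis, 3 were lower and 1 higher, beside these 9.68% and 4.82%, with a median difference of -0.21. *PGM1*, the plastidial phosphoglucomutase, was lower with little scatter, at 7.21 ± 0.05 in the morning and 8.15 ± 0.06 at night (SD, n = 4 each; difference -0.93, adjusted p = 1.44e-06), and *SS4* (-0.91) and *SBE2.1* (-0.79) were lower too. *GBSS1*, which makes amylose, was 1.04 higher in the morning (adjusted p = 0.00680), with 9.29, 8.11, 8.82 and 7.68 on the morning arrays, against 5.95, 8.27, 7.05 and 8.47 on the night arrays. Its CT16 arrays reached the morning range, and its call was lost with the 4 arrays of a side as replicates (adjusted p = 0.220). Without the 76 h array 5 genes of starch synthesis were lower.

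Of 23 phenylpropanoid genes, 3 were lower in the morning and 0 higher, with a median difference of -0.19, and this count is near the 14.5% called over all tested genes. *MYB111*, an activator of flavonol synthesis, had 5.18, 4.61, 4.85 and 4.62 on the morning arrays and 5.67, 6.26, 5.97 and 6.41 on the night arrays, a difference of -1.27 (standard error 0.14, adjusted p = 2.01e-05, limma). *FLS1*, flavonol synthase, differed by -0.63 (adjusted p = 0.000837), a call absent with the 4 arrays of a side as replicates (adjusted p = 0.0930). *4CL3*, a ligase early in the pathway, differed by -0.61 (adjusted p = 0.0213), which was lost without the array of 84, 88, 96, 100 or 108 h. *PAL2*, *LDOX*, *DFR* and *MYB12* were nearest to no difference, from -0.07 to 0.05. The highest Col mean fell at CT20, which neither side holds, for 13 of the 23 genes, beside 11.3% over all tested genes. Between CT4 and CT0, 3 of the genes were called, among them *DFR* (adjusted p = 0.0136, limma) and *LDOX* (0.0216). Both of these calls were lost without the 72 h or the 100 h array. The few calls between the sides thus do not show that the list was flat over the day.

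Of 10 tested genes of the cold response, 4 were lower in the morning and 0 higher, beside 9.68% and 4.82% over all tested genes. With the 4 arrays of a side as replicates 2 were lower, *RD29A* and *RD29B*. Of these, *RD29B* (adjusted p = 0.0442, limma) was not called in the main fit (0.0752). *RD29A* (AT5G52310), a stress-inducible protein, had 5.64, 6.33, 5.71 and 6.41 on the morning arrays and 8.06, 6.70, 7.99 and 6.58 on the night arrays, a difference of -1.3 (standard error 0.11, adjusted p = 2.03e-06, limma). *ERD10*, a dehydrin, differed by -0.47 and *COR15A*, a protector of chloroplast membranes, by -0.66 (adjusted p = 0.0352). The call of *COR15A* was lost without the array of 72, 76, 84, 88, 108 or 112 h and after median centring (0.0594), and that of *ERD10* with the 4 arrays of a side as replicates (0.157). *CBF2* was called higher only without the 76 h array (adjusted p = 0.0124), and its difference over all arrays was 0.68 (adjusted p = 0.0800). Of the redox enzymes, 1 of 7 was lower, again near the 14.5% called over all tested genes. It was the ascorbate peroxidase *APX1*, with 11.34 ± 0.12 in the morning and 11.82 ± 0.09 at night (SD, n = 4 each; difference -0.47, adjusted p = 0.00523). Of 8 nitrogen genes, 1 was higher and 2 lower, beside 4.82% and 9.68% over all tested genes. The asparagine synthetase *ASN1* was 1.19 higher (adjusted p = 0.00710, limma), with 5.25 ± 0.72 in the morning and 4.06 ± 0.30 at night. The nitrite reductase *NIR1* (-0.67, adjusted p = 0.00355) and the glutamate synthase *GLU1* (-0.44, adjusted p = 0.0263) were lower. The call of *GLU1* was lost without the array of 72, 88, 96, 100, 108 or 112 h and after quantile normalization (0.0604) or median centring (0.0641).

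Genes that are often used as references were not all flat. *ACT2*, an actin, had 10.60, 10.50, 10.58 and 10.44 on the morning arrays and 11.12, 11.01, 11.18 and 10.87 on the night arrays, a difference of -0.52 (standard error 0.09, adjusted p = 0.00140, limma), with no overlap. *UBQ10*, *UBC21*, *PP2AA3*, *YLS8* and *MON1* had differences from -0.31 to 0.16 and were not called. Without the 112 h array *MON1* was called lower (adjusted p = 0.0356), and after median centring *YLS8* was called higher (0.0352). None of the 5 root markers was called, and the smallest unadjusted p in limma was 0.132, for *SCR*, with differences from -0.20 to 0.20.

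**Figure D3:**
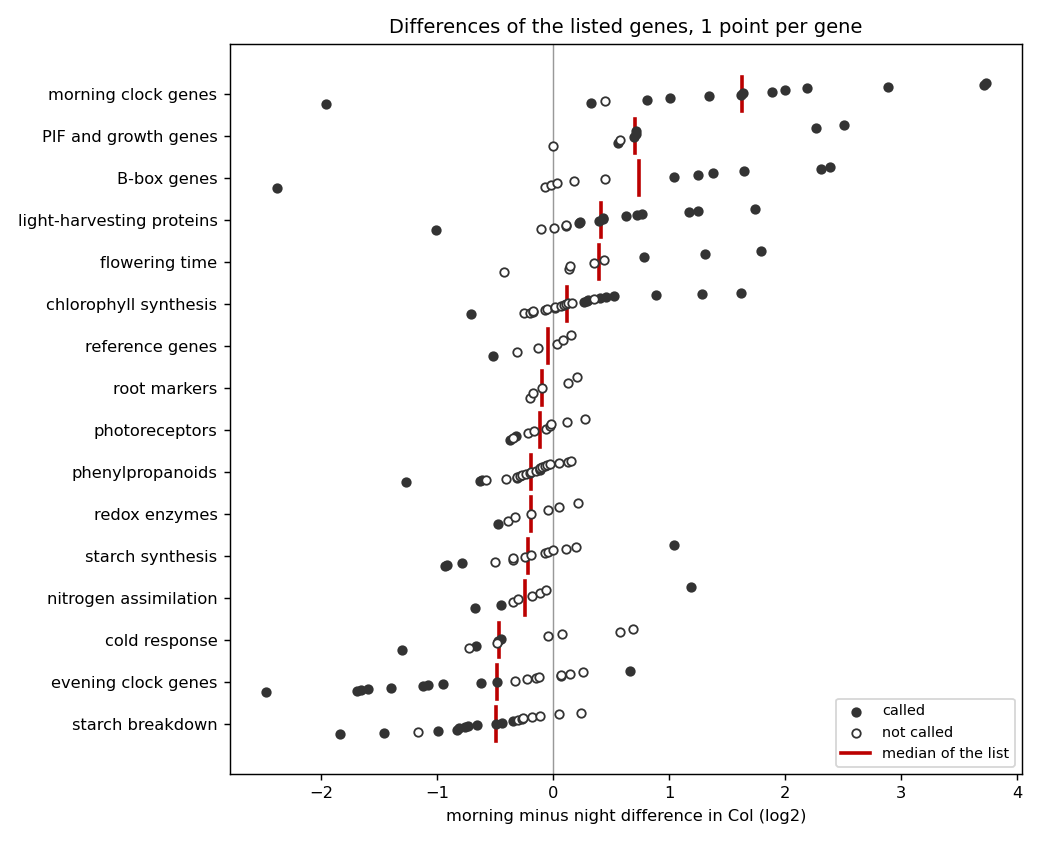
Morning minus night differences in Col on the log2 scale for the tested members of 16 gene lists, with called genes filled, other genes open and the median of each list as a red line. The medians reached from -0.49 for starch breakdown to 1.63 for morning clock genes, beside -0.04 over all tested genes.

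The 4 Col arrays of CT8 and CT20, which the comparison did not use, placed the called genes in the whole cycle. Of the genes higher in the morning, the highest of the 6 means fell at CT4 for 536 (59.0%), CT0 for 326 (35.9%), CT20 for 27 and CT8 for 20. Of the genes lower in the morning it fell at CT16 for 786 (43.0%), CT12 for 564 (30.9%), CT8 for 394 (21.6%) and CT20 for 82. Over all tested genes the shares were 14.7% at CT0, 21.3% at CT4, 20.8% at CT8, 15% at CT12, 16.9% at CT16 and 11.3% at CT20. That a called gene had its peak on its own side follows in part from the comparison. Among the clock genes lower in the morning, *TOC1*, *PRR3*, *LUX*, *FKF1*, *COR27* and *GRP7* were highest at CT8.

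**Figure D4:**
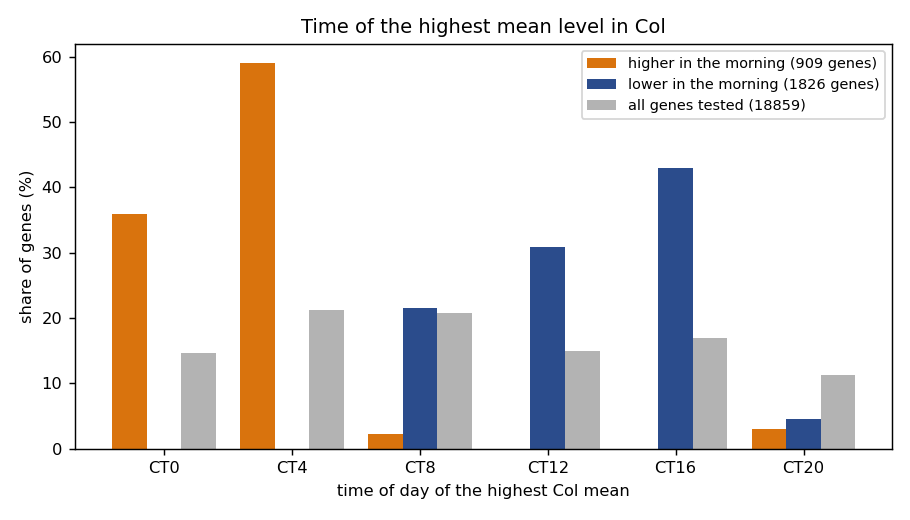
Share of genes in % whose highest Col mean fell at each time of day, for the 909 genes higher in the morning (orange), the 1826 lower in the morning (blue) and all 18859 tested genes (grey). CT4 held 59.0% of the genes higher in the morning, and CT8 held 21.6% of those lower in the morning.

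Each day gave the comparison once, with 2 arrays a side. All 909 and all 1826 called genes had the same sign on both days, as the choice of called genes favours. The difference was smaller on day 5 in 423 (46.5%) of the genes higher and 818 (44.8%) of the genes lower in the morning. Among the called genes that differed by at least 1 log2 unit, it was smaller on day 5 in 74 of the 136 higher and 55 of the 85 lower. In the clock lists, called or not, the difference was smaller on day 5 in 12 of the 14 morning and 12 of the 19 evening genes. Of these, 11 and 10 were called. *LHY* differed by 2.29 on day 4 and 0.95 on day 5, and *CCA1* by 2.56 on day 4 and 1.44 on day 5. *LNK3* differed by 4.38 on day 4 and 3.08 on day 5, and *COR27* by -2.33 on day 4 and -0.98 on day 5. *PRR7* was larger on day 5, with 1.75 on day 4 and 2.02 on day 5. Whether the days differ was not tested, since each has 1 array per time of day.

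The same comparison in *rve8-1*, at the same harvest times, was set against that of Col by the difference of the differences. *rve8-1* is a long-period mutant whose clock runs behind that of Col after days in constant light, so morning and night name the harvest times by the clock of Col and not the subjective time of *rve8-1*. A later phase and a changed level or amplitude cannot be told apart in these gaps. *RVE8*, the mutated gene, averaged 4.55 in *rve8-1* at the morning harvests and 3.35 in *rve8-1* at the night harvests, against 6.74 in Col at the morning harvests and 5.73 in Col at the night harvests. Of the tested genes, 1570 (8.32%) differed between the genotypes in this contrast (limma, adjusted p under 0.05), 980 with a more positive and 590 with a more negative difference in *rve8-1*, and 793 of them were called in Col. Of the 2735 genes called in Col, 810 were called in the same direction in *rve8-1*, 197 in the opposite direction and 1728 were not called there. The contrasts share no arrays but share the estimate of the spread.

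*PIF4* had a difference of -1.10 in *rve8-1*, at 6.30 in the morning and 7.41 at night (means of 4 arrays), against 2.51 in Col, a gap of -3.61 (standard error 0.29, adjusted p = 3.36e-06, limma). *CIPK20* had 0.24 in *rve8-1* and 3.55 in Col, a gap of -3.31 (adjusted p = 3.38e-05). *PRR7* had -0.93 in *rve8-1* and 1.89 in Col, a gap of -2.82 (adjusted p = 1.42e-06). In *PIF4* and *PRR7* the sign of the difference thus turned between the genotypes.

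*GI* and *PRR5*, which were not called in Col, had other values in *rve8-1*. *GI* had -1.44 in *rve8-1* and 0.26 in Col, a gap of -1.70 (adjusted p = 3.71e-05, limma), and *PRR5* had -1.91 in *rve8-1* and -0.33 in Col, a gap of -1.57 (adjusted p = 7.15e-05). *ASG4* had 2.75 in *rve8-1* and 0.45 in Col, a gap of 2.3 (adjusted p = 0.000528). *RVE2* had -0.29 in *rve8-1* and -1.95 in Col, a gap of 1.66 (adjusted p = 0.000151). For *TOC1* (-1.99 in *rve8-1* and -1.69 in Col), *JMJ30* (-2.53 in *rve8-1* and -2.47 in Col) and *CCA1* (2.52 in *rve8-1* and 2.00 in Col) the gap did not pass, with adjusted p of 0.419, 0.912 and 0.341, and standard errors of the gap of 0.19, 0.21 and 0.29.

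**Figure D5:**
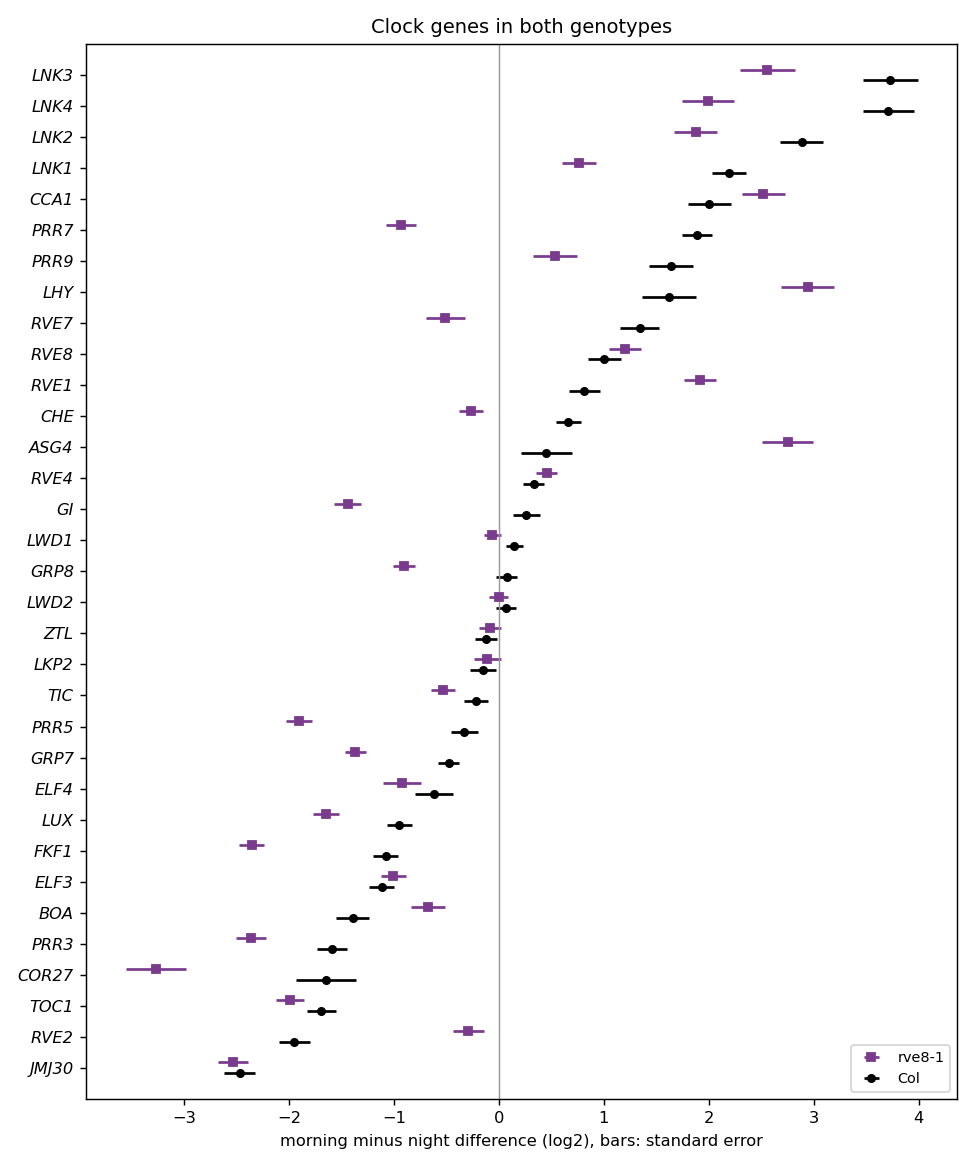
Morning minus night differences on the log2 scale for 33 clock genes, with rve8-1 as purple squares above Col as black circles and bars of 1 standard error from limma. PRR7 lay at -0.93 in rve8-1 and at 1.89 in Col, and JMJ30 lay at -2.53 in rve8-1 and at -2.47 in Col.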

How the data were processed

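RNA of 24 harvests was hybridized to AGRONOMICS1 arrays. The authors masked probes that performed poorly and used RMA for background, normalization and summary over TAIR9 genes. The deposited values are on the log2 scale. No column belonged to another sample (0 columns), and 29715 identifiers matched a locus tag of the TAIR10.1 annotation, from which names were taken. For 208 loci with more than 1 row, the row with the lowest suffix stood for the gene in a list. Signal over background was not used here, and the number of arrays limits the precision.

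Genes above 4.5 in at least 4 of the 12 Col arrays passed the filter. All 24 arrays entered 1 fit in limma 3.58.1 (R 4.3.3), which gave each time of day in each genotype its own mean (12 residual and 3.64 prior degrees of freedom), and the contrasts were tested with its moderated two-sided statistic after a check on simulated data. An SD over the 4 arrays of a side includes the change between its 2 times of day. Standard errors come from the fit, in which day 5 is the replicate of day 4. Samples of the same day were checked for pairing. The day 5 minus day 4 differences of the 4 Col times of day had correlations over genes from -0.04 to 0.16 (median 0.08), with 3 of 6 pairs over 0.1, so no block was used.

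The named genes are the 10 largest differences in each direction among called genes with sides that do not overlap, all clock genes listed, and up to 3 called genes per direction in the other lists, with the members nearest to no difference. *AMY3*, *DFR*, *CBF2*, *RD29B*, *CO*, *FT*, *CRY1*, *PHOT2*, *LHCA1*, *LHCA2*, *LHCB5*, *BBX2*, *ISA2*, *PIF3*, *IAA29*, *ATHB2*, *BBX8*, *BBX13*, *BBX14*, the uncalled reference genes and the tissue markers were added after their values were seen. The comparison, the lists and the tests were chosen with earlier results of these data known. Alternatives covered the filter, the scaling, the arrays in the fit, the prior, the day as a block, the threshold and each of the 8 arrays left out. Promoter sequence was not used here. Figures were drawn with matplotlib 3.10.9.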

Additional observations from a re-analysis of the deposited data

Results flagged for a closer look

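In 6 of the 162 sides of the named genes, 1 of the 4 arrays stood apart from the others by a share of the range above the 95% limit of Dixon, which chance gives in about 1 of 20 sides. They were *CIPK20* on the 88 h array of the night (3.04), *HPL1* on the 84 h array of the night (6.95), *RVE7* on the 72 h array of the morning (6.69), *LNK1* on the 88 h array of the night (4.42), *BBX24* on the 88 h array of the night (8.17) and *FC2* on the 108 h array of the night (8.05). Since a side holds 2 times of day, the 4 arrays are not plain replicates.

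Of the 47 genes with the largest differences or on the clock lists, 30 had a morning minus night difference that was not the same in *rve8-1* as in Col by the test of the gap itself (limma, adjusted p under 0.05), beside 8.32% of all tested genes. Of these 47 genes, 20 were chosen for large Col differences, which the gap subtracts, so that negative gaps are favoured where the Col difference is positive and positive gaps where it is negative. A later phase of *rve8-1* was not separated from a changed level. A negative gap, taken as *rve8-1* minus Col, was found for 21 genes, namely *PIF4* (-3.61), *CIPK20* (-3.31), *MYBL2* (-2.93), AT3G55240 (-2.89), *PRR7* (-2.82), *BBX6* (-2.63), *BBX28* (-2.20), *RVE7* (-1.85), *LNK4* (-1.72), *GI* (-1.70), *COR27* (-1.62), *PRR5* (-1.57), *LNK1* (-1.43), *FKF1* (-1.28), *PRR9* (-1.11), *LNK2* (-1.01), *GRP8* (-0.98), *CHE* (-0.93), *GRP7* (-0.89), *PRR3* (-0.77) and *LUX* (-0.70). A positive gap was found for 9 genes, namely *ASG4* (2.3), *RVE2* (1.66), *HPL1* (1.53), *BAM3* (1.47), *LHY* (1.32), AT2G28085 (1.29), AT2G23910 (1.14), *RVE1* (1.1) and *BBX3* (0.92). The calls of *BBX3*, *LNK2*, *LHY*, *PRR9*, *PRR3*, *COR27* and *LUX* were lost without 1 or more of the 8 Col arrays. For *BBX3* these were the arrays of 72, 84, 96, 100, 108 and 112 h, for *LNK2* of 72, 76, 84, 88 and 96 h, for *LHY* of 96, 100, 108 and 112 h, for *PRR9* of 76, 84, 88 and 96 h, for *PRR3* of 96, 100 and 108 h, for *COR27* of 96 and 108 h, and for *LUX* of 96 h, with adjusted p up to 0.110. *LNK3* was called only without the 112 h array and *BOA* only without the 100 h array. The *rve8-1* arrays were not left out in turn, so how far any of these gaps rests on a single *rve8-1* array was not examined.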

How the results depend on the processing

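Among 3817 recomputed differences (214 listed or named genes, 18 alternatives), 0 turned direction while called in either fit, 159 lost a call and 47 gained one. Differences near 0 that were called in neither fit were not counted as turned. With an adjusted p threshold of 0.01, 1177 genes were called between the sides, 373 higher and 804 lower, 61 between CT4 and CT0, 24 between CT16 and CT12, and 791 between the genotypes. With the Col arrays only, 4376 genes were called, 1746 of them higher. Median centring gave 1121 genes lower in the morning, and no expression filter gave 122 genes between CT4 and CT0 and 33 between CT16 and CT12. The stricter filter left 15123 tested genes and 2562 calls, 146 of them with a difference of at least 1 log2 unit. It drops every gene that is not above 4.5 on all 12 Col arrays. No moderation gave 45 genes between CT16 and CT12. With each of the 8 arrays left out, the counts lay between 1473 and 2458 for all calls, 489 and 736 for genes higher, 974 and 1722 for genes lower, 201 and 250 for differences of at least 1 log2 unit, 0 and 168 for CT4 against CT0, 9 and 72 for CT16 against CT12, and 1090 and 1453 for the gap between genotypes. The count of 0 came from limma without the 72 h array, with 1321 genes at an unadjusted p under 0.05. A time of day left with 1 array was assumed to vary like the others. The arrays left out were all of Col, so the range for the gap does not cover the loss of an *rve8-1* array. The replicate block, with the day as a term, gave 2654 calls, 873 higher and 1781 lower, and 232 and 84 within the sides, and the numbers of the days were not taken to pair the arrays. Among these 214 genes it changed the calls of *LHCB5*, which was lost (adjusted p = 0.0533), and of *BBX2* (0.0489) and *ISA2* (0.0426), which were gained. Where a side was treated as 4 replicates, 2719 genes were called. Depth here means signal over background, which the summarized values do not hold. The description of promoter motifs was not run.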

Other observations

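Among the 127 groups of at least 10 tested genes that share the stem of a symbol, 3 that no list covers are described here, picked after their values were seen and thus without a test. Over all tested genes 9.68% were lower and 4.82% higher in the morning. Of 10 *CRR* genes, whose products assemble or serve the chloroplast NDH complex or edit chloroplast transcripts, 7 were lower in the morning and 0 higher, with a median difference of -0.37. *CRR7* had 8.02 ± 0.31 in the morning and 8.76 ± 0.11 at night, and *CRR6* 8.09 ± 0.16 in the morning and 8.71 ± 0.07 at night (SD, n = 4 each). Of 12 *HSP* genes, chaperones of the heat shock families, 5 were lower and 0 higher, among them *HSP90.1* with a difference of -0.87 and *HSP70* with -0.73. Of 12 *OFP* genes, of the ovate family of transcriptional regulators, 4 were higher and 0 lower, and *OFP16* had the largest difference of them at 1.47, with 7.74 ± 0.17 in the morning and 6.27 ± 0.08 at night. Some of these calls were near the threshold of 0.05, with adjusted p of 0.0472 for *OFP8*, 0.0474 for *OFP12* and 0.0391 for *CRR28* (limma). Whether the calls of these 3 groups hold under the alternatives was not examined.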
